A study of Homo sapiens with 12 samples.

Results

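The small integral membrane protein genes, symbol root SMIM, were examined in ribosome profiling of HepG2, a human cell line derived from a liver cancer. Members were all protein-coding genes of the GENCODE annotation whose symbol starts with SMIM and a number, which gave 43 genes among 19831 protein-coding genes and 58721 genes in all. Cells were transfected with a control siRNA (siControl) or with siIGF2BP3, which targets the mRNA of the RNA-binding protein IGF2BP3. Cycloheximide at 100 µg/mL, which stalls cytosolic ribosomes on their mRNA, was given to all cultures for 4 min before lysis. RPF libraries hold ribosome-protected fragments of 28 to 30 nt left after RNase I digestion, and Input libraries report the level of the transcripts. There were 4 groups (siControl Input, siControl RPF, siIGF2BP3 Input and siIGF2BP3 RPF) of 3 libraries each. The knockdown was transient, and the libraries used here cover this cell line alone. The labels do not say whether replicates came from separate cultures, so the p-values measure the spread between these libraries, which may be technical.

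SMIM is a naming class for short proteins predicted to span a membrane. Its members share size and topology and need not share ancestry, and many have no settled function. The better known ones work in different places. SMIM1 carries the Vel blood group antigen on red cells, SMIM6 (endoregulin) binds the calcium pump of the endoplasmic reticulum, SMIM14 is a protein of the endoplasmic reticulum membrane, SMIM20 acts in the early assembly of cytochrome c oxidase, and SMIM26 is mitochondrial. Their reading frames are so short that a ribosome has few codons on which to leave a footprint, whereas Input reads come from the whole transcript.

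The reading frame of SMIM15 is shown whole because SMIM15 was the member called in all 3 comparisons of siIGF2BP3 with siControl. It is the GENCODE coding sequence at chr5:61159947-61160171 of hg38, minus strand, within 1 exon, and its 74 codons before the stop make 225 nt with the stop codon. Capitals mark the start and stop codons.

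SMIM15 frame: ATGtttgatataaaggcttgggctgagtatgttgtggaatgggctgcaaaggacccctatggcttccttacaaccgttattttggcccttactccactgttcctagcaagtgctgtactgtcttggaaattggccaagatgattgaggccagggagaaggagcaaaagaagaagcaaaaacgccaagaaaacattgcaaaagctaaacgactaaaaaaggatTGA

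The starts of members with extreme levels or ratios are shown beside it, with 9 bases before and 3 after the start codon, which is in capitals. The start codons are at chr5:61160169-61160171 (SMIM15, minus), chr4:39605143-39605145 (SMIM14, minus), chr7:113117576-113117578 (SMIM30, minus), chr5:150795441-150795443 (SMIM3, plus), chr19:3480461-3480463 (SMIM24, minus) and chr20:18567479-18567481 (SMIM26, plus) of hg38.
SMIM15: gctgtgaagATGttt
SMIM14: tgggtaatcATGgca
SMIM30: tccaacatcATGacc
SMIM3: tgaagcaacATGgat
SMIM24: tcgaccgtcATGgag
SMIM26: ggcgtacccATGtat

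A start codon within ANNATGG or GNNATGG, read on the coding strand only, was found in 11 of the 43 members (25.6%) and in 42.8% of the 19591 other protein-coding genes whose annotated frame begins with ATG. Of the 6 starts shown, those of SMIM14, SMIM3 and SMIM24 hold it, and those of SMIM15, SMIM30 and SMIM26 do not. At least 1 ATG upstream of the start was present in the leader of 22 members (51.2%), against 42.0% of the other genes. Of the 1710 others of at most 150 residues, 26.1% had an upstream ATG and 39.5% had the start motif above. SMIM15 has 2 upstream ATGs in a leader of 420 nt.

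Members had a median of 85 residues and ranged from 28 (SMIM47) to 172 (SMIM23), against a median of 428 in other protein-coding genes. A stretch of 19 residues with a mean Kyte-Doolittle hydropathy above 1.6, the usual mark of a membrane-spanning helix, was present in 37 of 43 members (86.0%). It was present in 39.6% of the other protein-coding genes and in 31.1% of the 1710 others of at most 150 residues. Among members without such a stretch were SMIM26 (highest value 1.121) and SMIM10L1 (0.989). The coding part was a small share of the exons counted, with a median of 10.1% in members and 34.6% in other genes.

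Total counts were 11219750 to 14797573 in the Input and 13036423 to 31510601 in the RPF libraries. The unit of level is CPM, a gene's count divided by its library total and scaled, and 3 counts, the limit that a count of 0 allows, correspond to 0.0952 to 0.267 CPM. That limit covers counting error only. Replicates 2 and 3 of siControl RPF differed by less than the sampling noise (mean chi-square 0.941 per gene) and entered means and SDs as 1 sample, so n = 2 there, whereas siIGF2BP3 RPF replicate 1 stood apart from the others of its group (19.8 and 21.5). The targeted gene was at 127 to 133 CPM in siControl Input, at 97.9 to 105 in siIGF2BP3 Input, at 74.6 to 78.1 in siControl RPF and at 21.9 to 27.9 in siIGF2BP3 RPF. All 12 hepatocyte markers were at 130 CPM or more in siControl Input, and of 10 markers of fibroblasts, blood and endothelium 9 were under 1 CPM, with PECAM1 highest at 1.48 CPM and CD3E at 0.

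The SMIM genes together took 380.1 to 381.1 CPM of the siControl Input and 306.1 to 312.2 CPM of the siControl RPF libraries. In siIGF2BP3 they took 391.7 to 410.7 CPM of Input and 340.3 to 363.7 CPM of RPF. Without SMIM15 the sums were 322.2 to 326.5 CPM in siControl Input and 323.4 to 339.9 CPM in siIGF2BP3 Input, which overlap. In RPF they were 289.8 to 296.2 CPM and 298.2 to 322.4 CPM, so a gap remained but most of the rise in summed footprints lay in SMIM15, which alone went from about 16.1 to 41.3 CPM. The highest of those sums, 322.4 CPM, was siIGF2BP3 RPF replicate 1. In bulk RNA, a change in the share of cells that express a gene and a change of its RNA per cell cannot be told apart.

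Of the 43 members, 18 had enough counts to be tested (edgeR's filter on low counts), and they were the same 18 in each comparison. Those described by name are SMIM1, SMIM3, SMIM6, SMIM7, SMIM8, SMIM10L1, SMIM11, SMIM13, SMIM14, SMIM15, SMIM19, SMIM20, SMIM24, SMIM26, SMIM27, SMIM29 and SMIM30. Of the 25 others, 9 had no count in any of the 12 libraries: SMIM2, SMIM9, SMIM18, SMIM21, SMIM23, SMIM33, SMIM34, SMIM39 and SMIM44. The remaining 16 had some counts but stayed at or below 0.704 CPM in each library. They were SMIM5, SMIM10, SMIM10L2A, SMIM10L2B, SMIM17, SMIM22, SMIM28, SMIM31, SMIM32, SMIM35, SMIM36, SMIM38, SMIM41, SMIM43, SMIM45 and SMIM47. The highest in Input was SMIM17, with a mean of 0.427 CPM in siControl Input and 0.0752 CPM in siControl RPF, followed by SMIM38 (0.406 and 0.0410 CPM) and SMIM32 (0.219 and 0.114 CPM). Of these 16, 12 had fewer than 10 counts over all libraries, and no fold is given for any of them.

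**Figure D1:**
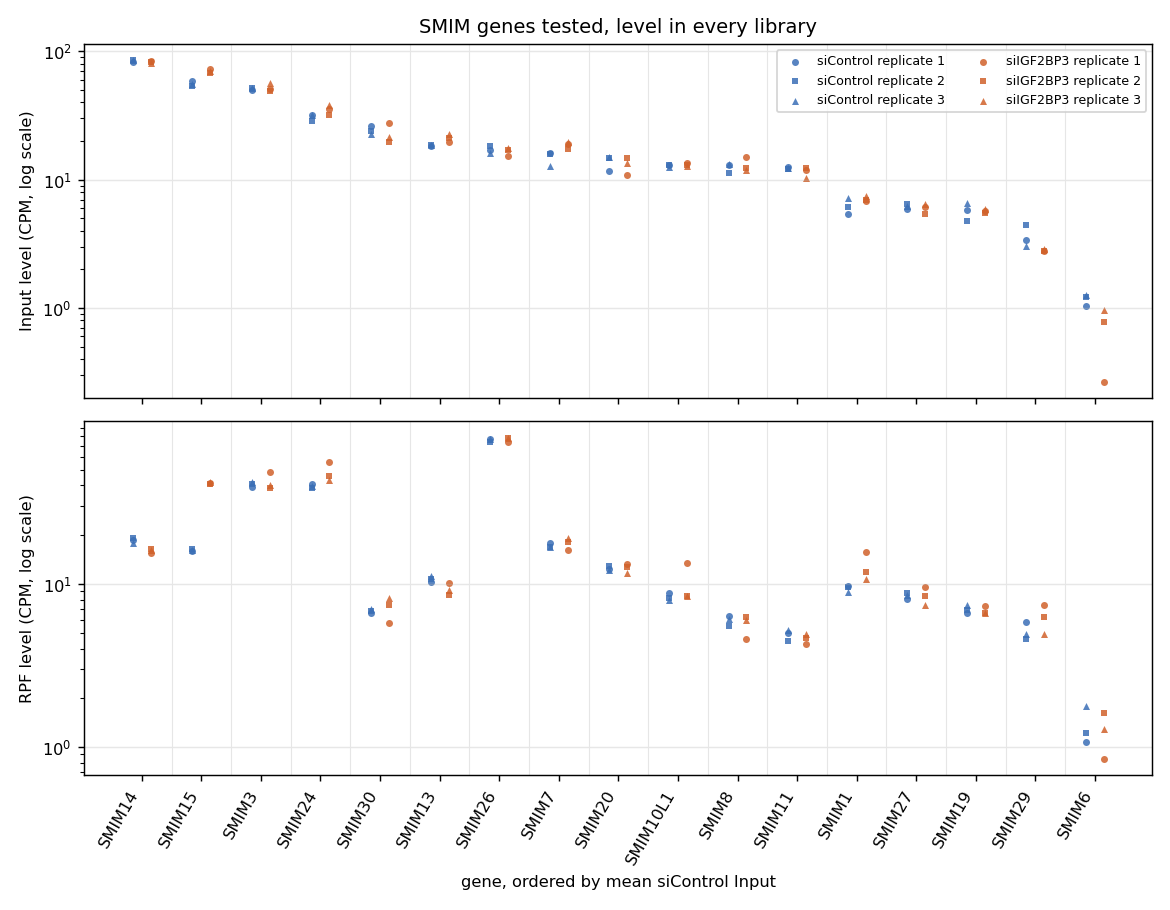
Levels of 17 of the 18 tested SMIM genes in each of the 12 libraries, with Input CPM above and RPF CPM below on log axes and genes ordered by mean siControl Input. Blue marks siControl and orange siIGF2BP3, and circle, square and triangle are replicates 1, 2 and 3. In the lower panel the orange SMIM15 points (40.6 to 42.0 CPM) sit far above the blue ones (15.9 to 16.3 CPM), and SMIM26 has the highest footprint level.

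In siControl Input the highest member was SMIM14, at 82.2, 85.5 and 85.5 CPM. SMIM15 was next at 58.5, 53.7 and 55.3 CPM, and SMIM3, known as a gene induced by nerve growth factor, was at 50.4, 52.2 and 52.1 CPM. These 3 stood above the other members in each siControl Input library, and SMIM15 stood above SMIM3 in each. SMIM24 followed at 32.0, 28.9 and 31.7 CPM and SMIM30, a gene known from studies of liver cancer as the source of a microprotein, at 26.0, 23.9 and 22.9 CPM. From SMIM13 (18.6 ± 0.179 CPM, SD, n = 3) down to SMIM11 (12.4 ± 0.249 CPM) neighbours in the order often lay within each other's spread, and the lowest tested members were SMIM29 (3.61 ± 0.755 CPM) and SMIM6 (1.17 ± 0.121 CPM). The level of SMIM14 was 72.1 times that of SMIM6. Divided by exon length, which is needed to compare genes, the order changed: SMIM3 (21.0 CPM per exon kilobase), SMIM24 (20.6) and SMIM15 (19.3) led, and SMIM14 was at 12.6.

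In siControl RPF the order was another. SMIM26 was highest at 76.5, 73.9 and 76.8 CPM, SMIM3 was at 39.4, 40.6 and 42.2 CPM, and SMIM24 was at 40.6, 38.5 and 39.6 CPM. The libraries of SMIM3 and SMIM24 overlapped, so these members were not ordered, and SMIM26 stood above both. SMIM14 was at 18.6, 18.9 and 17.7 CPM, and SMIM15 at 15.9, 16.3 and 16.1 CPM. Per coding kilobase SMIM26 (266 CPM per coding kilobase) and SMIM3 (224) led, with SMIM24 at 102, SMIM15 at 72.4 and SMIM14 at 62.1.

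The ratio of RPF CPM to Input CPM, written RPF/Input, describes how many footprints a gene gave for its transcript level. In siControl its median over the 18 members, all with at least 1 CPM of Input, was 0.996, or 1.02 with siControl RPF replicates 2 and 3 taken as separate libraries. The median was 0.873 over the 11939 protein-coding genes with that minimum, 0.975 over the 919 others of at most 150 residues and 1.37 over 46 other small membrane proteins. Members ranged from 0.219 (SMIM14) to 4.44 (SMIM26), a 20.3-fold span, and 8 of 18 lay below the median of protein-coding genes.

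Among members with at least 5 CPM of Input, the mitochondrial protein gene SMIM26 had the highest RPF/Input, at 4.48, 4.32 and 4.49 in the 3 siControl RPF libraries over the mean Input of 17.1 ± 0.992 CPM (SD, n = 3). At the low end SMIM14 was at 0.220, 0.225 and 0.209, and SMIM30 was at 0.274, 0.282 and 0.288. SMIM15, at 0.286, 0.293 and 0.288, overlapped SMIM30 and stood above SMIM14. Among protein-coding genes SMIM14, SMIM30 and SMIM15 lay at percentiles 9.96, 14.2 and 14.8, and SMIM26 lay at percentile 96.2.

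The ratio of CPM does not take account of how little of a SMIM transcript is coding. With RPF per coding kilobase over Input per exon kilobase, and the median of protein-coding genes set to 1, the median of the members was 3.34 and only SMIM30, at 0.980, lay below 1. SMIM15 was at 1.23, SMIM14 at 1.62 and SMIM26 at 5.60. Other genes of at most 150 residues had a median of 2.42 on that scale, and the 46 small membrane proteins 3.36. These values rest on the length of all annotated exons of a gene, and which of these exons HepG2 uses is not given by the counts.

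SMIM26 shares 144 nt of its exons, 118 nt of them coding, with ENSG00000284776 on the same strand, which itself had 43.5 CPM of siControl Input and 55.4 CPM of siControl RPF. SMIM7 shares 383 nt with ENSG00000268790 on the same strand (1.93 and 16.0 CPM), and these include all 225 nt of its coding sequence. Reads of such stretches cannot be assigned to either gene. The SMIM26 and SMIM7 values are uncertain to that extent, which for SMIM7 covers every footprint on its frame. SMIM8, SMIM10L1, SMIM15, SMIM19 and SMIM27 overlap genes on the opposite strand, and whether strand was used in counting is not given in the sources used here. SMIM19 (5.72 CPM of siControl Input) shares 265 nt with SLC20A2, at 74.8 CPM of siControl Input and 45.8 of siControl RPF. SMIM27 (6.20 CPM of siControl Input) shares 120 nt with TOPORS (50.8 and 22.6 CPM) and 14 nt with NDUFB6 (12.9 and 112 CPM). For SMIM15 the partner SMIM15-AS1 shares 258 nt, none of them coding, and had at most 3 counts in any library. Fractional counts, which arise where a read is shared between places, occurred in 13 of the 18 members.

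After knockdown SMIM15 rose at both levels, far more in footprints than in transcript. Its Input level was 58.5, 53.7 and 55.3 CPM in siControl and 72.5, 68.3 and 70.9 CPM in siIGF2BP3. Its RPF level was 15.9, 16.3 and 16.1 CPM in siControl and 41.3, 40.6 and 42.0 CPM in siIGF2BP3. In both assays each siIGF2BP3 library was above each siControl library, and in RPF the gap between the groups was many times the spread within either.

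Mean Input of SMIM15 rose from 55.8 ± 2.46 to 70.6 ± 2.10 CPM (SD, n = 3 for each group), and edgeR's quasi-likelihood test, which scales libraries by TMM factors, gave a log2 fold change of 0.29, or 1.22-fold, with an SE of 0.06 and an adjusted p of 0.00265. Mean RPF rose from 16.1 ± 0.180 (SD, n = 2) to 41.3 ± 0.716 CPM (SD, n = 3), for which edgeR gave 1.38, or 2.59-fold, with an SE of 0.05 and an adjusted p of 0.000116. RPF/Input went from 0.288 ± 0.00323 to 0.585 ± 0.0101. The difference between the changes in RPF and in Input, the change in translational efficiency (TE), was 1.09 on the log2 scale, or 2.13-fold, in edgeR's interaction test, with an SE of 0.08 and an adjusted p of 4.65e-07. Its counts behind these values were 697 to 881 in Input and 343 to 1071.33 in RPF libraries. These tests, unlike the SDs, kept siControl RPF replicates 2 and 3 as separate libraries. With the 2 summed, the adjusted p was 0.0066 in RPF and 5.81e-06 in TE (edgeR).

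SMIM15 was 1 of 598 genes that rose in Input, where it stood 338th by size of change. In RPF it was 20th of 205 rises by size, and the 2nd of the protein-coding ones. In TE it was 3rd of 109 rises. Ordered by p it was 2nd among 20192 genes in RPF and 2nd among 13395 in TE, behind another gene in each, and 189th among 14759 in RNA. After knockdown its RPF/Input of 0.585 remained below the median of protein-coding genes in siIGF2BP3, 0.829.

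Copies of SMIM15 held few counts. The processed pseudogene SMIM15P2 on chromosome 6 (28319660 to 28319852) had no Input count, 2.5, 2.0 and 1.5 counts in siControl RPF and 4.0, 7.5 and 8.33 counts in siIGF2BP3 RPF, and SMIM15P1 on chromosome X had at most 0.33. With both added to SMIM15, a check chosen after the data were seen, SMIM15 had a log2 fold change of 0.29 (RNA), 1.38 (RPF) and 1.09 (TE).

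SMIM15 was the only member called in each comparison at an adjusted p under 0.05. In RNA this was 1 of 18 members, where 5.96% of 14759 genes were called and 4.05% were called as rises. In RPF it was 1 of 18, where 1.66% of 20192 genes were called and 1.02% as rises. In TE it was 1 of 18, where 2.17% of 13395 genes were called and 0.814% as rises. A count of 1 in 18 does not set the SMIM genes apart from these shares.

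The median log2 fold change of the 18 members was -0.04 (RNA), 0.03 (RPF) and 0.11 (TE), against 0.00, 0.01 and 0.01 over all genes tested. Without SMIM15 it was -0.04, 0.02 and 0.10. The other protein-coding genes of at most 150 residues had medians of -0.06, 0.03 and 0.09, close to those of the SMIM genes. In these short genes 15 TE calls were rises and 1 was a fall, of 915 tested, and in RNA 6 were rises and 35 were falls, of 945 tested. Over all genes there were 109 rises and 182 falls in TE and 598 rises and 281 falls in RNA. With an offset for exon length the counts over all genes were 114 rises and 125 falls in TE and 443 rises and 646 falls in RNA. The RNA balance over all genes thus depended on that setting. Unadjusted p (edgeR) was under 0.05 for 3 of 18 members in RNA, 4 in RPF and 3 in TE, SMIM15 included. Over all genes it was under 0.05 for 3017 of 14759 in RNA, 3251 of 20192 in RPF and 2130 of 13395 in TE.

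**Figure D2:**
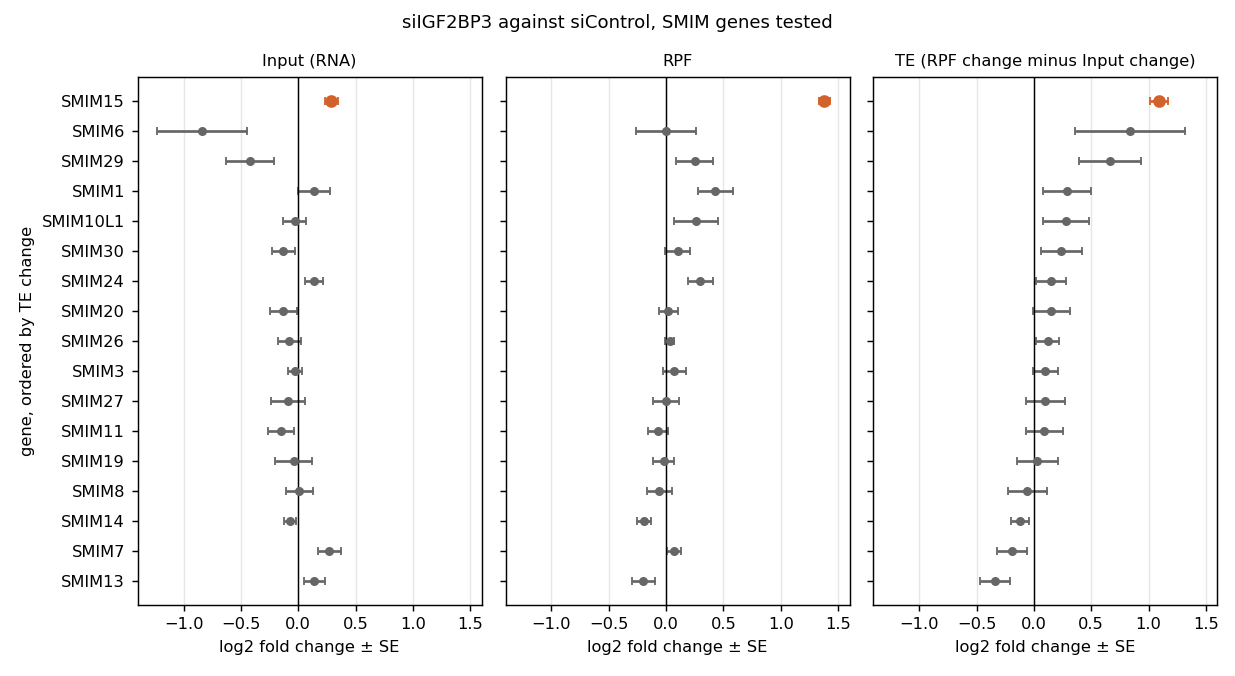
Log2 fold change (siIGF2BP3 over siControl) of 17 of the 18 tested SMIM genes with its SE in Input, RPF and TE, ordered by the TE change. Orange marks genes with an adjusted p under 0.05 (edgeR), which is SMIM15 in each panel at 0.29, 1.38 and 1.09. The other members lie between -0.84 and 0.27 in Input, -0.20 and 0.43 in RPF and -0.34 and 0.84 in TE.

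Of the mitochondrial members, SMIM26 was at 15.2, 17.1 and 17.6 CPM in siIGF2BP3 Input and at 73.2, 78.6 and 77.5 CPM in siIGF2BP3 RPF. Against the siControl values above the groups overlapped in both assays, with log2 fold changes of -0.08 ± 0.10 (RNA), 0.03 ± 0.04 (RPF) and 0.12 ± 0.10 (TE), each with its SE. SMIM20 went from 13.8 ± 1.86 to 13.1 ± 1.90 CPM in Input (SD, n = 3) and from 12.4 ± 0.121 (n = 2) to 12.5 ± 0.800 CPM in RPF, with a TE change of 0.15 ± 0.16. A list of 20 genes of cytochrome c oxidase assembly and its early core covered the surroundings in which SMIM20 works. Of these, edgeR called 1 in each comparison, the mitochondrially encoded subunit MT-CO1. Over all genes tested, edgeR called 5.96% in RNA, 1.66% in RPF and 2.17% in TE. DESeq2 also called COX4I1 in RNA, where it called 718 of 14759 genes. A count of 1 in 20 does not set the list apart from the shares over all genes. MT-CO1 fell by 0.37 on the log2 scale in RNA and rose by 0.28 in RPF and 0.66 in TE (adjusted p = 9.45e-06, 0.0316 and 1.56e-05, edgeR). Its mean was 5440 CPM in siControl Input and 4350 CPM in siIGF2BP3 Input. The cycloheximide used here stalls cytosolic ribosomes, so RPF/Input of a mitochondrially encoded gene need not be comparable with that of the others. The medians of that list were -0.05, 0.05 and 0.09.

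Of the members of the endoplasmic reticulum, SMIM14 was at 84.6, 83.2 and 81.5 CPM in siIGF2BP3 Input and at 15.3, 16.3 and 16.1 CPM in siIGF2BP3 RPF. Its Input groups overlapped, and each siIGF2BP3 RPF library was below each siControl RPF library, and the RPF difference was -0.19 ± 0.06 (log2, SE) with an adjusted p of 0.155 by edgeR. Its TE change was -0.12 ± 0.08. SMIM6, the calcium pump regulator, had Input levels of 1.04, 1.22 and 1.27 CPM with siControl and of 0.267, 0.775 and 0.969 CPM with siIGF2BP3. The groups did not overlap, but the level was close to the limit of 3 counts in siIGF2BP3 Input replicate 1, and the largest RNA difference among uncalled members, -0.84 ± 0.39, did not pass the test (adjusted p = 0.220, edgeR). In RPF it was at 1.08, 1.22 and 1.78 CPM in siControl and 0.844, 1.61 and 1.29 CPM in siIGF2BP3, which overlapped, and its TE change was 0.84 ± 0.48 (adjusted p = 0.409, edgeR). Without siIGF2BP3 Input replicate 1 the SMIM6 differences were -0.49 in RNA and 0.49 in TE (adjusted p = 0.542 and 0.67, edgeR).

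SMIM1, the Vel antigen gene, was at 9.62, 9.61 and 8.95 CPM in siControl RPF and at 15.7, 11.8 and 10.8 CPM in siIGF2BP3 RPF. The groups did not overlap, yet the log2 fold change of 0.43 ± 0.15, the largest of the uncalled members in RPF, had an adjusted p of 0.209 (edgeR). Its Input groups, 5.35 to 7.14 and 6.86 to 7.40 CPM, overlapped. SMIM24 had the next largest uncalled RPF difference, 0.30 ± 0.11 (adjusted p = 0.228, edgeR), with 55.8, 45.5 and 43.4 CPM in siIGF2BP3 RPF, all above siControl RPF. Its siIGF2BP3 Input was at 35.6, 31.9 and 38.1 CPM, which overlapped siControl.

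SMIM29 had Input levels of 3.36, 4.46 and 3.02 CPM with siControl and of 2.76, 2.79 and 2.91 CPM with siIGF2BP3. It did not overlap and was lower after knockdown, by -0.42 ± 0.21 in RNA (log2 with its SE, adjusted p = 0.252 by edgeR), with a TE change of 0.66 ± 0.27 (adjusted p = 0.215, edgeR). Without siControl Input replicate 2 these were -0.22 and 0.46 (adjusted p = 0.653 and 0.483, edgeR). SMIM13 did not overlap in either assay, in opposite directions. It was at 18.4 to 18.7 CPM in siControl Input and 19.6 to 22.8 CPM in siIGF2BP3 Input, and at 10.2 to 11.2 CPM in siControl RPF and 8.53 to 10.1 CPM in siIGF2BP3 RPF. Its TE change was -0.34 ± 0.13 (adjusted p = 0.190, edgeR).

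SMIM3 and SMIM30 showed no difference that passed a test. SMIM3 was at 50.7, 49.4 and 56.7 CPM in siIGF2BP3 Input and at 48.0, 38.8 and 40.3 CPM in siIGF2BP3 RPF, overlapping siControl in both. SMIM30 was at 27.8, 19.7 and 21.3 CPM in siIGF2BP3 Input and at 5.71, 7.41 and 8.21 CPM in siIGF2BP3 RPF, overlapping siControl in both, with a TE change of 0.24 ± 0.18.

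The other tested members described were SMIM7, SMIM8, SMIM10L1, SMIM11, SMIM19 and SMIM27. SMIM7 was above siControl in each siIGF2BP3 Input library (17.5 to 19.7 against 12.9 to 16.3 CPM), with a log2 fold change of 0.27 ± 0.10 and the lowest adjusted p of the uncalled members in RNA, 0.128 (edgeR). SMIM10L1 was at 13.5 CPM in siIGF2BP3 RPF replicate 1 and at 8.42 and 8.45 CPM in the other libraries of that group. The other members of this set, SMIM8, SMIM11, SMIM19 and SMIM27, had log2 fold changes from -0.15 to 0.01 in RNA and from -0.07 to 0.00 in RPF, and their groups overlapped in both assays.

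In Input the siIGF2BP3 and siControl libraries did not overlap for 6 of 18 members, with SMIM7, SMIM13 and SMIM15 among those above and SMIM6 and SMIM29 below. Of all 14759 genes tested, 25.0% did not overlap, 19.2% above and 5.73% below. In RPF 5 members did not overlap, with SMIM1, SMIM15 and SMIM24 above and SMIM13 and SMIM14 below, against 25.7% of 20192 genes, 10.9% above and 14.8% below. These shares of the members were near those of all genes.

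**Figure D3:**
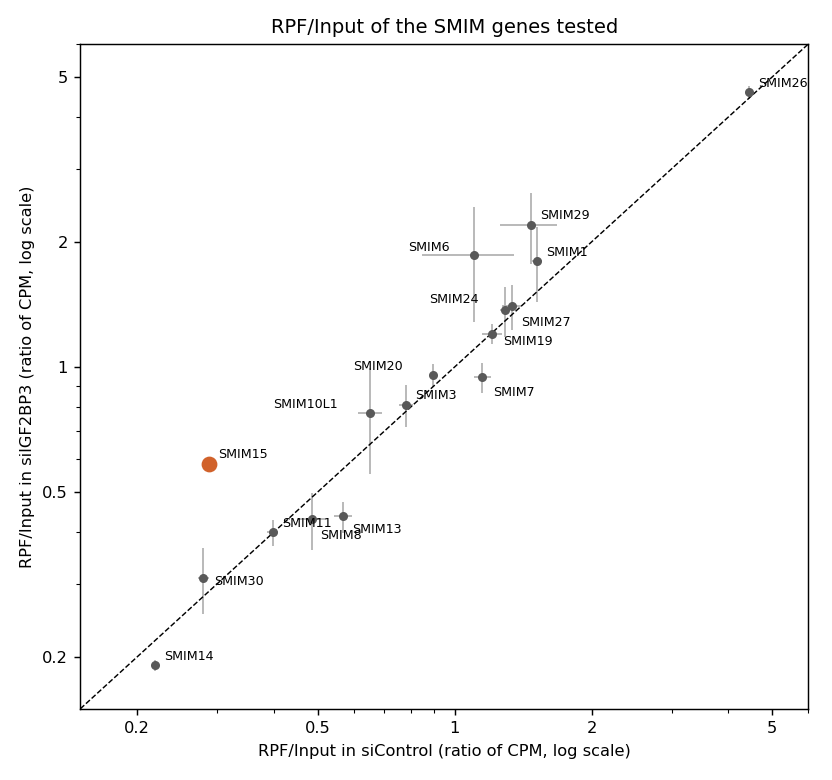
RPF/Input of 17 of the 18 tested SMIM genes in siControl (x axis) against siIGF2BP3 (y axis), each a ratio of mean CPM on a log axis, with SD over RPF libraries as bars. The dashed line marks equal ratios. SMIM15, in orange, went from 0.288 to 0.585, and members such as SMIM14 (0.219 and 0.191) and SMIM26 (4.44 and 4.59) lie near the line.

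The library siIGF2BP3 RPF replicate 1 had the fewest counts of the RPF libraries, 13036423, and the lowest share in protein-coding genes, 82.7%. For 14 of the 18 members (77.8%) it lay outside the range of the other 5 RPF libraries, as it did for 71.5% of 13395 genes. SMIM1, SMIM3, SMIM10L1, SMIM20, SMIM24, SMIM27 and SMIM29 were above and SMIM6, SMIM7, SMIM8, SMIM11, SMIM14, SMIM26 and SMIM30 below. SMIM15, at 41.3 CPM, lay between its other siIGF2BP3 libraries. Without this library 5 members were called in RPF, where 16.5% of genes were (7.97% as rises and 8.57% as falls). SMIM15 (log2 fold change 1.36), SMIM1 (0.26) and SMIM24 (0.16) rose, and SMIM13 (-0.27) and SMIM14 (-0.19) fell (adjusted p = 0.0257, 0.0151, 0.0274 and 0.0296 for the last 4, edgeR). In TE SMIM15 and SMIM13 (-0.40, adjusted p = 0.0285, edgeR) were then called, where 10.0% of genes were. The siIGF2BP3 RPF libraries left for these fits, replicates 2 and 3, differed by about the sampling noise (mean chi-square 1.15 per gene). Replicates 2 and 3 of siControl RPF did so too (0.941). The adjusted p without replicate 1 may therefore measure little beyond counting error. After replicates 2 and 3 of siControl RPF were added together, SMIM15 was called in RPF (log2 fold change 1.39, adjusted p = 0.0066, edgeR), where 0.0673% of genes were, and in TE, where 1.06% were.

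**Figure D4:**
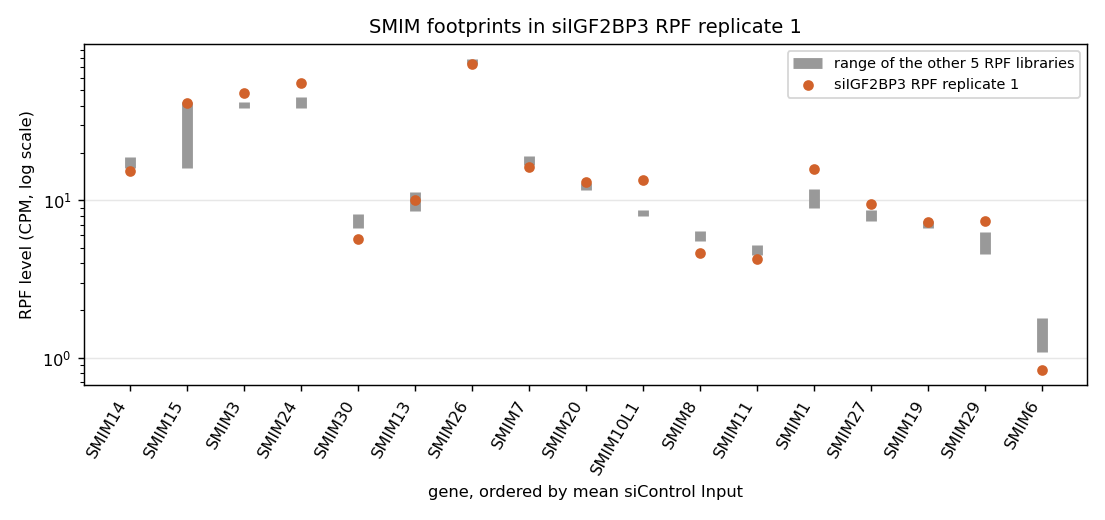
RPF level of 17 of the 18 tested SMIM genes in siIGF2BP3 RPF replicate 1 (orange point) beside the range of the other 5 RPF libraries (grey bar), as CPM on a log axis. The point lies outside the bar for 14 genes, 7 above and 7 below, and within it for SMIM13, SMIM15 and SMIM19.

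A list of 50 other small membrane proteins, such as subunits of the translocon, of the oligosaccharyltransferase and of respiratory complexes, served for comparison, and 46 of them were tested. In RNA none rose and 2 fell, the cytochrome c oxidase subunits COX6C by 0.21 and COX7C by 0.17 on the log2 scale (adjusted p = 0.00983 and 0.0312, edgeR). Over all 14759 genes 5.96% were called in RNA, 598 as rises and 281 as falls. In RPF and in TE edgeR called none of them, where it called 1.66% and 2.17% of genes. Unadjusted p (edgeR) was under 0.05 for 10 of them in RNA, 6 in RPF and 4 in TE. Over all genes it was so for 3017 of 14759, 3251 of 20192 and 2130 of 13395. DESeq2 called 1 in RPF, the respiratory chain subunit UQCR10, and 0 in TE, where it called 667 of 20192 and 392 of 13395 genes. Their medians were -0.07, -0.02 and 0.09. A rise of the kind seen in SMIM15 was not found in that list, in which the largest RPF log2 fold change was 0.33.

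The genes whose pattern over the 12 libraries was most like that of SMIM15, by Pearson's r of log2 CPM centred within each assay among 9390 protein-coding genes with at least 5 CPM in both assays, were SSU72 (r = 0.987), CCDC50 (0.986), DSC2 (0.984), FLVCR1 (0.981) and GNPNAT1 (0.975). SSU72 is a phosphatase of the RNA polymerase II tail, DSC2 a desmosomal cadherin, FLVCR1 a membrane transporter and GNPNAT1 an enzyme of UDP-N-acetylglucosamine synthesis. These values share the libraries and depth of SMIM15 and are a description. The RPF log2 fold changes of these genes were 0.26 to 0.96 and their TE changes 0.27 to 0.75, all below those of SMIM15.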

How the data were processed

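Ribosome profiling libraries (ART-seq) of HepG2 cells were used, 12 in all, grouped by the sample labels. Per the submitters' processing notes and the study's methods, the authors used Cutadapt for trimming, STAR for alignment to hg38 and featureCounts for gene counts. Versions, the options for shared reads and the use of strand are not given in the sources used here, and the labels describe the making of the RPF libraries only. The deposited tables hold estimated counts, many of them fractions, with no scaling to depth. They were rounded to whole numbers for testing. Names, types, coding lengths and sequences came from GENCODE release 44, which matched 58207 of 58721 identifiers (99.1%). Coding length took the place of RefSeq protein length, which was not used here.

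CPM was the count over the library total. Each comparison of siIGF2BP3 with siControl was fitted over the whole table with edgeR 4.0.16 (filterByExpr, TMM factors, robust quasi-likelihood tests, Benjamini-Hochberg adjustment, threshold 0.05). RNA used the 6 Input and RPF the 6 RPF libraries, and TE was the assay-by-knockdown interaction in all 12. Means and SDs took siControl RPF replicates 2 and 3 as 1 sample, and the tests kept 3 libraries. The spread between libraries is the error used, and it includes counting error. Between siControl libraries the members differed by about the sampling noise, with a mean chi-square of 1.08 to 1.12 in Input and 0.597 to 1.15 in RPF. Between siIGF2BP3 libraries it reached 2.06 in Input and 6.34 in RPF. SEs came from the estimate and its F statistic.

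The members and lists were chosen with earlier results of these data known. Named with values in every library were members called in any comparison, the 3 highest in siControl Input and in siControl RPF, and the 2 highest and 2 lowest in RPF/Input among those with at least 5 CPM. Of these, 1 member is not reported here; it stayed in the counts, medians and fits. The 2 largest uncalled differences per comparison, and the 5 genes most like SMIM15, were named too. Alternatives were DESeq2 1.42.0, RLE factors, other filters, protein-coding genes only, unrounded counts, a replicate or culture block, a length offset (loess span 0.3), TMM factors over all libraries, limma 3.58.1 on log2 ratios (pseudocount 0.5), summed siControl RPF replicates 2 and 3, each library left out, and, added after seeing the data, SMIM15 with its pseudogenes. The scripts were tested on simulated data.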

Additional observations from a re-analysis of the deposited data

Results flagged for a closer look

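SMIM15 was singled out because its change after knockdown differed between the RPF and Input libraries. The log2 difference was 1.09 with an SE of 0.08 and an adjusted p of 4.65e-07 (edgeR, 12 libraries), with a rise of 1.38 in RPF and of 0.29 in Input. Each of the 3 siIGF2BP3 libraries was above each of the 3 siControl libraries in both assays. No other SMIM gene passed that test, and the cause of the difference was not tested.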

How the results depend on the processing

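SMIM15 was called in RNA and RPF under each alternative tool, filter, scaling, block and left-out library, with log2 fold changes of 0.26 to 0.31 in RNA (adjusted p = 0.000677 to 0.0189) and 1.35 to 1.40 in RPF (5.16e-54 to 0.00673). In TE its change was 1.00 to 1.12 (1.02e-23 to 0.0816), and the call was lost only with limma on log2 ratios (1.00, adjusted p = 0.0816), which left 0 members and 0 of all genes called, whereas edgeR called 291 and DESeq2 392 genes. With each library left out in turn, 1 member was called in RNA, 1 to 5 in RPF and 1 to 2 in TE, the highest counts being those without siIGF2BP3 RPF replicate 1. Leaving out members that overlap another gene or have fractional counts, SMIM15 among them, gave 0 calls in each comparison. The siControl median RPF/Input of 1.02 was 1.14 over protein-coding counts, 0.843 for members with at least 5 CPM, 3.31 per kilobase, and 0.943 to 1.03 with each library left out. Same-numbered libraries correlated from -0.133 to 0.115 in their deviations, too weakly to be taken as pairs, although between siControl RPF and siIGF2BP3 RPF all 3 matched their own number best (0.034 to 0.115). A replicate block left 1 member called in each comparison and gave 931, 379 and 195 calls over all genes in RNA, RPF and TE, and a culture block gave 121 in TE. Over all genes RNA calls numbered 444 to 1089 against 879. RPF calls numbered 336 with edgeR, 667 with DESeq2, 201 in protein-coding genes only, 207 with the length offset, 14 with siControl RPF replicates 2 and 3 summed, and 11 to 3410 with a library left out. TE calls numbered 143 with those replicates summed and 126 to 1350 with a library left out. The 25 untested members had too few counts for a test, and the counts do not tell an absent transcript from one too rare for this depth. The siControl RPF spread rests on 2 distinct samples.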
